A study of Komagataella phaffii with 32 samples.

Results

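The genes described here are the transcription factors of Komagataella phaffii, a methylotrophic yeast, other than the best-known regulators of its alkaline response. They were chosen by the word "transcription factor", "transcriptional activator" or "transcriptional repressor" in the description that the authors' deposited table gives each gene. This found 75 genes, of which 7 (CRZ1, RIM101, HAC1, FEP1, PHO2, RPN4 and YAP1) were left out by name, so that 68 of 5040 genes remained. Of these, 54 had a symbol and 14 only an identifier. The choice itself used no expression value, though it was made with earlier results of these data known. The word in a description does not make a gene a DNA-binding regulator: 9 of the 68 belong to the general transcription machinery, such as SUA7 (TFIIB) and SPT15 (the TATA-binding protein), and 2 are proteins whose description cites or proposes a factor (YBP2 and PCC1).

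RNA was sequenced from whole cells of 3 strains grown at 28 °C in rich medium with glycerol: the crz1 strain PJA-001, the rim101 strain PJA-007 and their isogenic parent X-33, called WT. The labels give the genotypes as crz1_559 and rim101_117 and do not describe the alleles, and the series text names GS115 as wild type. The calcineurin-regulated factor Crz1 and the alkaline pH factor Rim101 are the subjects of the series, which asks what each contributes to the response to an alkaline medium. Cells at T0 were taken at once after they had been moved to fresh medium of pH 5.5, and cells at T15, T30 and T60 after 15, 30 and 60 min in fresh medium of pH 8.0. There were 3 libraries per time for crz1 and for WT and 2 for rim101, 32 in all. No sample at pH 5.5 after 15 min or more was analysed here, so a change since T0 by pH, by time in fresh medium and by handling cannot be told apart.

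A transcription factor binds DNA near the genes it controls and raises or lowers their transcription. Many factors are themselves switched on or off by phosphorylation, by a bound metal or metabolite, or by movement into the nucleus, so the level of a factor's mRNA is not a measure of its activity. In Saccharomyces cerevisiae, from which most of the roles below are known, an alkaline medium calls on calcium signalling through Crz1 and on Rim101, and it disturbs the uptake of phosphate, copper and iron and the use of glucose.

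Most of these factors were expressed at low levels. Values are RPKM, read numbers scaled to gene length and to the mapped reads of the library, so that the levels of different genes can be compared. Of the 68 genes, 62 had a mean of at least 1 RPKM over all libraries and were tested. The median of their means was 19.0 RPKM, against 36.4 RPKM for all 4226 tested genes, and 22 of the 62 means lay above 36.4 RPKM. There were 6 genes with a mean of at least 100 RPKM, 41 between 10 and 100 RPKM, and 15 between 1 and 10 RPKM.

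The highest mean was that of GCN4 (PAS_chr1-4_0339), the activator of amino acid synthesis under starvation, at 634 RPKM over all 32 libraries. It lay at the 94.4th percentile of the tested genes. Next came MCM1 (258 RPKM), a MADS-box factor of cell type and cell cycle genes, and TOS8 (222 RPKM), a homeodomain repressor. SUA7 followed at 148 RPKM and CIN5-1, a bZIP factor, at 142 RPKM. The lowest means belonged to ARO80, TFB2 and PAS_chr1-1_0162, which were listed at 0 in nearly every library. TFB2 is a subunit of the general factor TFIIH and essential in S. cerevisiae, yet it was above 0 in crz1 T15 replicate 3 and crz1 T60 replicate 3 alone, at 0.560 and 0.497 RPKM. A value of 0 is therefore given here only as a listed value. Across the set, 28 of 68 had a listed 0 in some library and 40 had none.

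**Figure D1:**
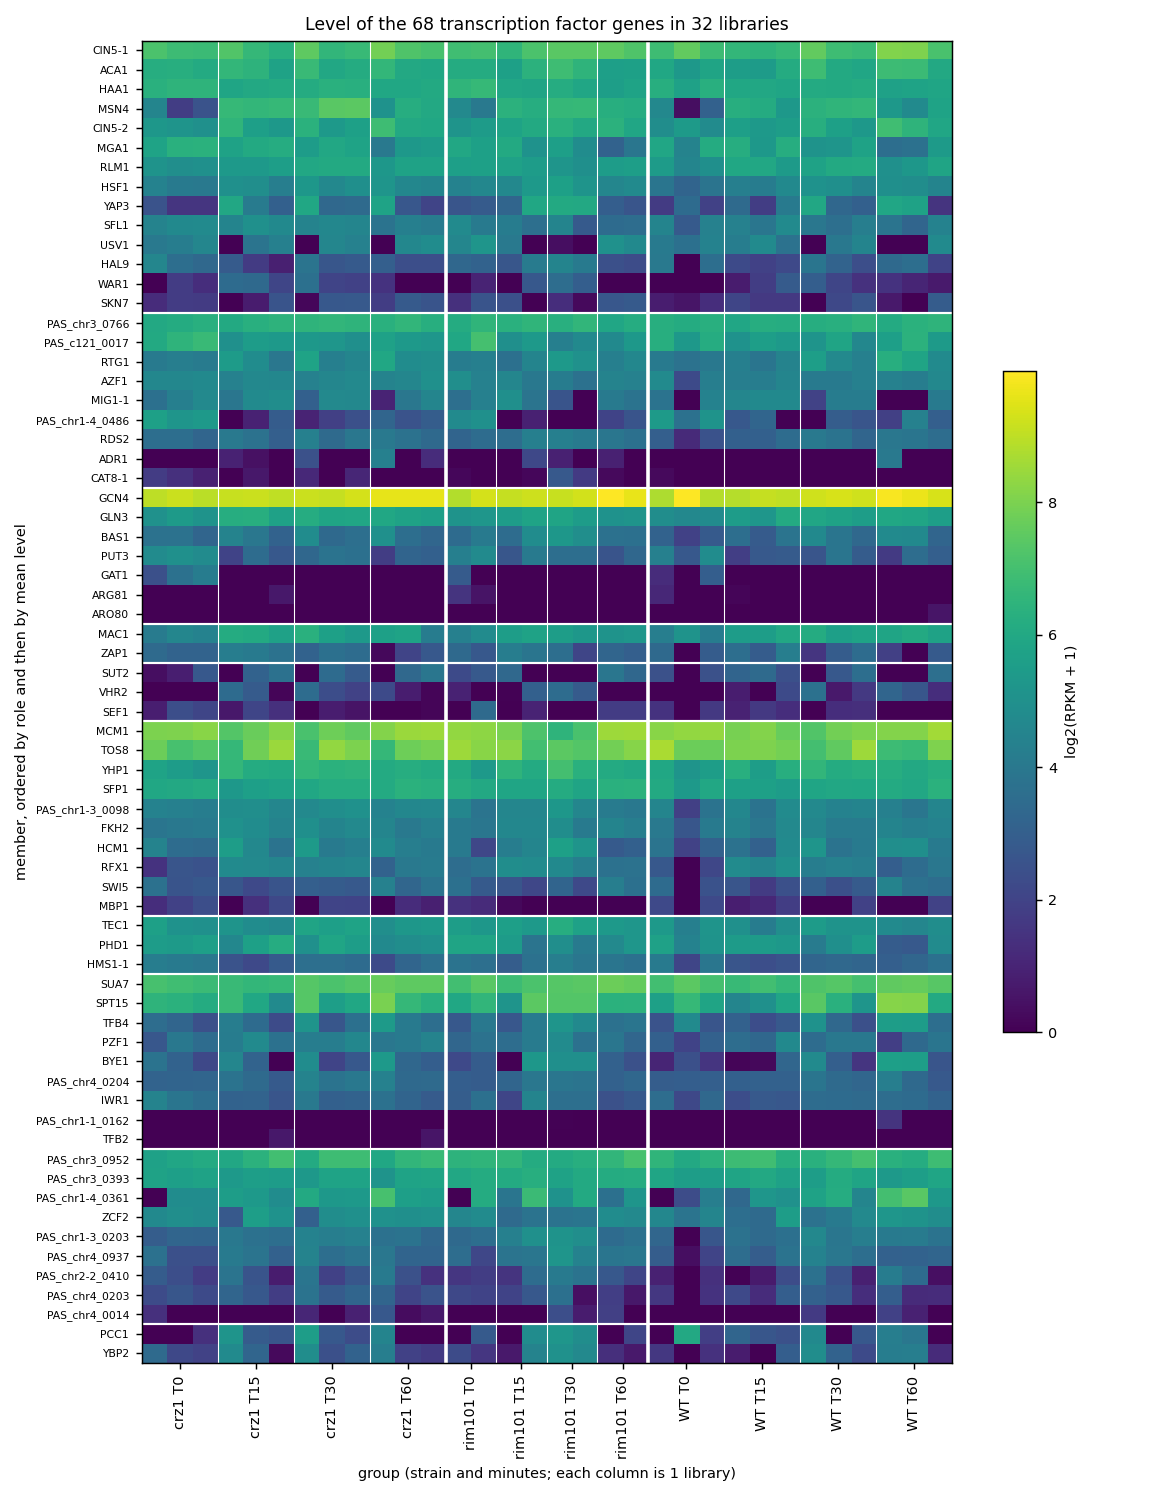
Level of each of the 68 genes (rows, ordered by role and then by mean level) in each of the 32 libraries (columns, grouped by strain and time), as log2(RPKM + 1) in colour. GCN4, with a mean of 634 RPKM, is the brightest row, and ARO80, TFB2 and PAS_chr1-1_0162 are dark in nearly every column.

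The genes lie on all 4 chromosomes, and none of their spans overlaps that of another gene. Members of the set are direct neighbours at 1 place on chromosome 4, where AZF1 (412344 to 414689, plus strand), PAS_chr4_0203 (414815 to 417784, minus strand), PAS_chr4_0204 (418396 to 419346, plus strand) and FKH2 (419632 to 421419, plus strand) follow each other. Their means over all libraries ran from 4.54 RPKM for PAS_chr4_0203 to 20.6 RPKM for AZF1, a carbon-responsive zinc finger factor in S. cerevisiae, so the 4 neighbours did not share a level.

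The libraries were not alike, for these factors as for other genes. Depth, read from the spacing of the deposited values, ran from 4.95 to 19.8 in units of 1000000 reads per library, with a median of 8.42. The median gene stood at 46.6 to 56.6 RPKM in 9 libraries, against 21.0 to 35.4 RPKM in the other 23. These 9 were crz1 replicate 1 at every time of pH 8.0, rim101 T15 replicate 2, both rim101 T30 libraries, WT T30 replicate 1 and WT T60 replicates 1 and 2, and none was at T0. They are called higher-median libraries below, and the split was made from the data and not from the labels. CRZ1 mRNA was 21.6 to 54.6 RPKM in crz1 (median 31.8) and 16.6 to 34.3 RPKM in WT (median 25.1). RIM101 mRNA was 24.3 to 42.1 RPKM in rim101 (median 28.5) and 20.5 to 151 RPKM in WT (median 122). Its median in crz1 was 117 RPKM, so RIM101 was mostly lower in rim101 than in the other strains. A mutated gene can still be transcribed, so these levels do not check the genotypes.

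Of the 62 tested factors, 7 had ranges in the 9 higher-median libraries and in the other 23 that did not overlap, or 11.3%, against 22.1% of all tested genes. USV1 (PAS_chr4_0166), a C2H2 zinc finger factor, was listed at 0 in 8 of the 9 and at 0.302 RPKM in rim101 T30 replicate 1, while it was 11.9 to 36.2 RPKM in the other 23 libraries. At the estimated depths, 3 reads of USV1 would be 0.113 to 0.451 RPKM. YAP3 (PAS_chr1-4_0639), a bZIP factor, ran the other way, at 52.5 to 66.0 RPKM in the 9 and 1.83 to 16.7 RPKM in the other 23. The other 5 were also higher in the 9. Of all tested genes, 895 lay above and 40 below in the 9 without overlap, and the split itself was made on the median of all tested genes. SPT15 was 108 to 287 RPKM in the 9 against 22.3 to 102 RPKM in the other 23. BYE1, a negative regulator of transcription elongation in S. cerevisiae, was 22.8 to 47.9 RPKM against 0 to 13.0 RPKM. BAS1, YBP2 and PAS_chr2-2_0410 completed the group. SUT2 and MBP1 were listed at 0 in all 9 libraries, and in 1 and 4 of the other 23.

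Replicates of one strain and time could therefore differ widely in these genes. USV1 was listed at 0 in both WT T60 replicates 1 and 2, and at 26.5 RPKM in WT T60 replicate 3. YAP3 was 58.9, 52.5 and 1.83 RPKM in the same 3 libraries. At rim101 T15, USV1 was 15.2 RPKM in replicate 1 and listed at 0 in replicate 2. Neither gene passed the test against T0 in any strain at any time.

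**Figure D2:**
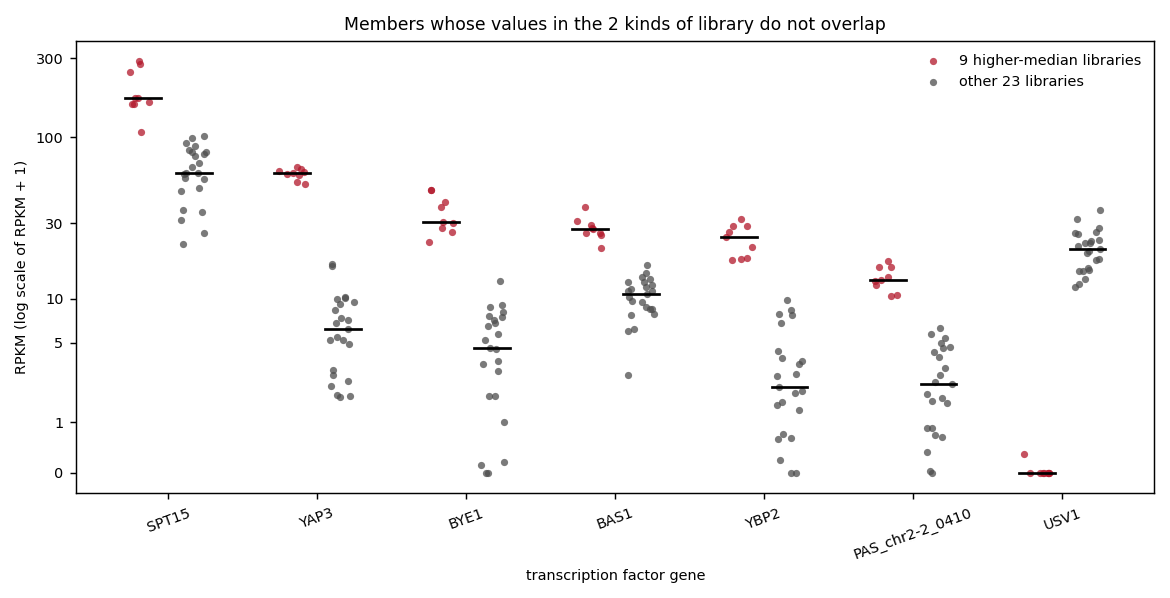
RPKM of the 7 members whose values do not overlap between the 9 higher-median libraries (left, red) and the other 23 (right, grey), on a log scale of RPKM + 1. Points are libraries and black lines medians; 6 genes are higher in the 9, and USV1 is at or near 0 there.

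WT T0 replicate 2 also stood apart for these genes. It was the lowest of the 3 WT T0 libraries for 45 of the 62 tested factors (72.6%), against 39.1% of all tested genes. RFX1, SWI5, MIG1-1, ZAP1, HAL9 and PAS_chr1-3_0203 were listed at 0 there, and were 3.40 to 20.2 RPKM in the other two WT T0 libraries. AZF1 was 26.5, 3.73 and 18.2 RPKM in WT T0 replicates 1, 2 and 3. GCN4 and PCC1 went the other way, with 1007 and 63.7 RPKM in WT T0 replicate 2, against 426 and 468 RPKM for GCN4 and 0 and 2.60 RPKM for PCC1 in replicates 1 and 3. Leaving out WT T0 replicate 2 moved a number of WT values by over 1.5 times and added calls, and these are given beside the genes they concern. The library was singled out from these same values, so calls made without it are given only as a description.

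In WT, more factors rose than fell at pH 8.0. Changes are differences of log2(RPKM + 1) between the libraries of a time and those of T0, tested with limma, and a gene rose or fell at a Benjamini-Hochberg adjusted p under 0.05 over all tested genes. At T15, 7 factors rose and 1 fell, 12.9% of the 62, against 18.6% of all tested genes, of which 13.4% rose and 5.18% fell. At T30, 12 rose and 1 fell, 21.0% against 28.2% of all genes (24.1% rose and 4.07% fell). At T60, 17 rose and 1 fell, 29.03% against 31.5% (26.9% rose and 4.61% fell). The median change of the factors was 0.28, 0.57 and 0.56 at T15, T30 and T60, beside 0.17, 0.62 and 0.65 for all tested genes. At each time the share of factors called was below that of all tested genes, and at T60 it was near this background. In bulk RNA, fewer cells that express a gene and less RNA per cell cannot be told apart. Nothing in the labels says that replicates came from separate cultures, so p-values measure the spread between these libraries, which may be technical.

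The split of rises and falls in WT moved with the scaling of the libraries. Shares of all tested genes under the alternative settings were not counted, here or below. The counts under them therefore describe the factors alone and are not set against a background. With median-ratio scaling 9, 8 and 9 factors rose and 2, 3 and 4 fell at T15, T30 and T60. Under quantile normalization the rises were 5, 1 and 3 and the falls 3, 3 and 4. Without WT T0 replicate 2, 4, 11 and 13 rose and 5, 3 and 5 fell. Without the higher-median libraries, 8, 11 and 1 rose and 4, 0 and 0 fell. That last fit has a single WT T60 library, assumed to vary like the other groups. WT T60 replicates 1 and 2 were of the higher-median kind, so the WT calls at T60 rest largely on such libraries. This limit holds for every gene called at T60 in WT below and is not repeated for each.

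**Figure D3:**
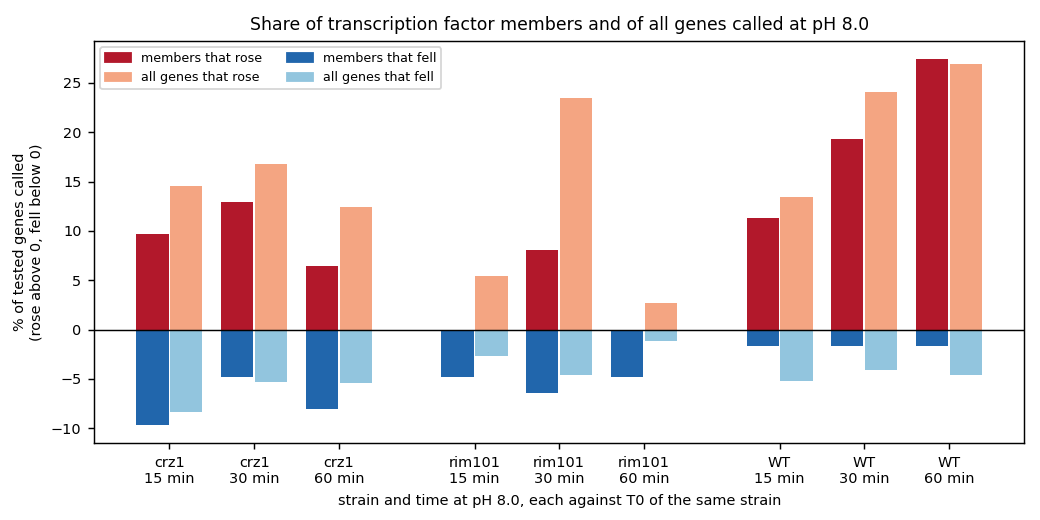
Share of the 62 tested members and of all 4226 tested genes that rose (above 0) or fell (below 0) at each time of pH 8.0 against T0 of the same strain, in percent, by limma at an adjusted p under 0.05. In WT at T60, 27.4% of members and 26.9% of all genes rose; at T30 in rim101 8.06% of members and 23.5% of all genes did.

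Of 14 tested genes of stress and drug response, 2, 4 and 4 rose in WT at T15, T30 and T60, which is near the 13.4%, 24.1% and 26.9% of all tested genes that rose. The groups by role that follow are read against the same shares, and their counts are given as a description. MSN4 (PAS_chr2-1_0723, chromosome 2, 1372100 to 1373170), a zinc finger activator of the general stress response in S. cerevisiae, had the largest changes among them. In WT it was 24.4, 0.282 and 7.49 RPKM at T0, 75.1, 68.9 and 38.6 RPKM at T15, 83.1, 92.4 and 95.7 RPKM at T30, and 38.5, 25.9997 and 54.2 RPKM at T60. All 9 libraries at pH 8.0 lay above all 3 at T0. The log2 changes were 3.19 (SE 0.68, limma adjusted p = 0.00163), 3.81 (SE 0.68, adjusted p = 0.00028) and 2.58 (SE 0.68, adjusted p = 0.00787). Without WT T0 replicate 2 the changes were 2.02, 2.64 and 1.41, the last no longer passing (adjusted p = 0.0522). At T60 the call was also lost with both other scalings.

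HSF1 (PAS_chr2-1_0026), the heat shock factor, was 13.8, 8.24 and 13.3 RPKM at T0 in WT, 18.8, 17.2 and 25.9 RPKM at T15, 33.4, 30.7 and 21.8 RPKM at T30, and 30.4, 28.9 and 21.8 RPKM at T60. No library at pH 8.0 overlapped T0, and the rise passed at T30 (log2 change 1.22, SE 0.29, limma adjusted p = 0.00292) and at T60 (1.15, adjusted p = 0.00535). With quantile normalization neither time passed (adjusted p = 0.156 and 0.408). RLM1 (PAS_chr4_0093), a MADS-box factor that acts below the cell wall integrity kinase in S. cerevisiae, rose at T15 and T30 by 0.81 and 0.98 (adjusted p = 0.0131 and 0.00254). Both calls were lost with either other scaling, and that at T15 also without WT T0 replicate 2, WT T15 replicate 1 or WT T15 replicate 2 (highest adjusted p = 0.0768). At T15 its libraries (60.3, 62.9 and 42.5 RPKM) overlapped those of T0 (43.2, 22.1 and 30.2 RPKM).

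At T60 the bZIP factor CIN5-2 (PAS_chr4_0887) rose as well, with 120.1, 89.0 and 58.5 RPKM against 28.4, 41.9 and 27.1 RPKM at T0 (log2 change 1.40, limma adjusted p = 0.00383). The groups did not overlap, and the call held with both other scalings and whichever of the 6 libraries was dropped. WAR1, the factor of weak acid resistance in S. cerevisiae, was listed at 0 in all 3 WT T0 libraries, and was 7.003, 3.21 and 1.69 RPKM at T30, where it passed (limma adjusted p = 0.0238), but in 2 of 6 fits with 1 library left out. SKN7, an oxidative and osmotic stress regulator, stayed between 0 and 6.43 RPKM in every library and did not pass at any time in any strain.

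Of 10 tested genes of the cell cycle, growth and DNA damage, 1, 3 and 4 rose in WT at T15, T30 and T60, against 13.4%, 24.1% and 26.9% of all tested genes, and RFX1 was among them each time. RFX1 (PAS_chr2-2_0153, chromosome 2, 2097747 to 2100539), a repressor of DNA damage genes, was 5.65, 0 and 3.40 RPKM at T0 in WT, 27.3, 21.4 and 31.1 RPKM at T15, 17.6, 19.7 and 18.3 RPKM at T30, and 6.81, 10.5 and 14.5 RPKM at T60. The groups at pH 8.0 did not overlap T0, and the level at T15 was the highest of the 4 times. The log2 changes were 3.15 (SE 0.47, limma adjusted p = 3.52e-05), 2.66 (adjusted p = 0.000217) and 1.86 (adjusted p = 0.00568), and each passed whichever of the 6 libraries was dropped. They were 2.34, 1.85 and 1.05 without WT T0 replicate 2. At T30 and T60 the call was lost with quantile normalization, and at T60 also with median-ratio scaling and without the higher-median libraries.

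Besides RFX1, 2 genes of this role passed at T30 (YHP1 and PAS_chr1-3_0098) and 3 at T60 (SWI5, HCM1 and FKH2). SWI5 (PAS_chr1-3_0099), an activator of genes at the end of mitosis in S. cerevisiae, was 20.9, 12.2 and 10.8 RPKM at T60 in WT, against 10.3, 0 and 4.65 RPKM at T0 (log2 change 1.91, SE 0.58, limma adjusted p = 0.0177). The forkhead factor HCM1 was 29.3, 30.1 and 16.04 RPKM at T60 against 13.1, 2.87 and 7.46 RPKM at T0 (1.71, adjusted p = 0.0277). Both groups lay above T0 without overlap, but neither call held without WT T0 replicate 2 (changes of 0.91 and 1.21, adjusted p = 0.116 for SWI5 and 0.117 for HCM1) or without WT T60 replicate 1. FKH2 and YHP1, a forkhead factor and a homeodomain repressor, passed at T60 and T30 with changes of 0.83 and 0.78. FKH2 was 0.36 without WT T0 replicate 2 (adjusted p = 0.277) and turned to -0.18 with quantile normalization, and YHP1 lost its call there (adjusted p = 0.637). With 1 library left out, FKH2 passed in 2 of 6 fits and YHP1 in 3 of 6. MCM1, a partner of several of these factors, was 152, 228 and 259.6 RPKM at T30 against 294, 331 and 339.2 RPKM at T0 in WT, a log2 change of -0.62 that missed the threshold (adjusted p = 0.0569).

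In nitrogen and metal control, GLN3 and MAC1 rose at all 3 times in WT. GLN3 (PAS_chr1-3_0126), the GATA activator of genes for poor nitrogen sources, was 28.7, 24.1 and 27.4 RPKM at T0, 44.4, 37.1 and 67.5 RPKM at T15, 59.2, 53.1 and 45.5 RPKM at T30, and 61.0, 58.0 and 47.0 RPKM at T60. MAC1 (PAS_chr3_0923), the copper-sensing activator of copper uptake genes, was 18.1, 33.6 and 17.1 RPKM at T0, 45.1, 46.0 and 62.8 RPKM at T15, 68.7, 48.0 and 53.9 RPKM at T30, and 55.1, 66.5 and 52.7 RPKM at T60. For both genes every library at pH 8.0 was above every library at T0.

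The log2 changes of GLN3 were 0.83, 0.95 and 1.02 (limma adjusted p = 0.00634, 0.00186 and 0.00122), with SE 0.21. Those of MAC1 were 1.18, 1.32 and 1.36 (adjusted p = 0.0139, 0.00503 and 0.00485), with SE 0.33. At T15, leaving out WT T15 replicate 3 ended both calls (adjusted p = 0.0692 for GLN3 and 0.0776 for MAC1), as did leaving out WT T0 replicate 1 or 3 for MAC1. With quantile normalization both passed at T15 only, and with median-ratio scaling GLN3 passed at T15 only. The zinc factor ZAP1, the other tested metal regulator, was 2.66, 0 and 6.15 RPKM at T60 in WT, against 9.51, 0 and 6.38 RPKM at T0, and did not pass at any time. GCN4 was 942, 820.0 and 661 RPKM at T60 in WT against 426, 1007 and 468 RPKM at T0, and did not pass (log2 change 0.45, limma adjusted p = 0.102). Without WT T0 replicate 2, the highest GCN4 library of all 32, the change was 0.84 at T60 and 0.49 at T30, and both passed (adjusted p = 0.000298 and 0.0162).

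The second GATA factor of the set, GAT1 (PAS_chr4_0626), was listed at 0 in every library at pH 8.0. That held for all 24 libraries at T15, T30 and T60, whatever the strain. At T0 it was 4.41, 12.1 and 17.05 RPKM in crz1, 6.36 and 0 RPKM in rim101, and 1.44, 0 and 6.83 RPKM in WT. The depth allows 3 reads of this gene to be 0.0820 to 0.328 RPKM. Its mean over all libraries, 1.51 RPKM, came from T0 libraries alone and mostly from crz1. GAT1 therefore passed the filter of 1 RPKM through the group from which it fell, and its tests are given only as a description. The fall passed in crz1 at all 3 times (limma adjusted p = 0.000259, 0.000296 and 0.000457), where T0 was highest, and not in rim101 or WT. In WT the fall passed at all 3 times without WT T0 replicate 2, where GAT1 was listed at 0 (adjusted p = 0.0163, 0.0133 and 0.0133). No fold is given against a listed 0.

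Of 8 tested genes of carbon source use and respiration, 0, 1 and 2 rose in WT at T15, T30 and T60 and 1, 1 and 0 fell. The risers were RDS2 at T30 and T60 and RTG1 at T60, and the gene that fell was of the Hap4 kind. PAS_chr1-4_0486 (chromosome 1, 2291941 to 2292945) is described as a protein with the Hap4 heteromerisation domain, the part by which Hap4 joins the Hap complex, an activator of respiratory genes. In WT it was 41.8, 12.3 and 34.1 RPKM at T0, 5.77, 8.52 and 0 RPKM at T15, 0, 6.68 and 5.16 RPKM at T30, and 2.66, 20.1 and 7.03 RPKM at T60. At T15 and T30 no library reached the lowest of T0. The log2 changes of -2.76 at T15 and -2.91 at T30 passed (SE 0.84, limma adjusted p = 0.0216 and 0.0123). The first was lost without WT T0 replicate 1 or 3 or WT T15 replicate 3 (-1.76 without the last, adjusted p = 0.195), and the second without WT T0 replicate 1 or WT T30 replicate 1 (highest adjusted p = 0.121). The gene described as HAP2 (PAS_chr3_0766), a DNA-binding subunit of that complex, stayed between 58.5 and 94.2 RPKM in all 32 libraries and did not pass in any comparison with T0.

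RDS2 (PAS_chr2-1_0225), a zinc cluster activator of gluconeogenesis genes in S. cerevisiae, rose in WT by 1.46 at T30 and 1.56 at T60 (limma adjusted p = 0.00709 and 0.00526). It was 15.4, 12.9 and 8.60 RPKM at T30, against 7.16, 1.27 and 4.65 RPKM at T0, with no overlap. Without WT T0 replicate 2 the changes were 0.94 and 1.04 (adjusted p = 0.0496 and 0.0293), and with quantile normalization they were 0.18 and 0.22 and did not pass. RTG1, a factor of signalling from mitochondria to nucleus, rose at T60 by 1.67 (adjusted p = 0.00715), with 74.9 and 55.6 RPKM in the 2 higher-median libraries and 26.7 RPKM in the third, against 16.3, 12.4 and 14.9 RPKM at T0. This call was lost without WT T60 replicate 1 (adjusted p = 0.0569). MIG1-1, described as a factor of glucose repression, was 0, 0 and 15.9 RPKM at T60 in WT, again low in the higher-median libraries, and 12.9, 0 and 20.2 RPKM at T0, and did not pass. CAT8-1, an activator of gluconeogenesis genes, was at most 5.86 RPKM and was not tested.

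Of 8 tested factors for which the files give no role, 2, 2 and 3 rose in WT at T15, T30 and T60, against 13.4%, 24.1% and 26.9% of all tested genes. PAS_chr1-3_0203 was 8.83, 0 and 5.44 RPKM at T0, 12.5, 9.91 and 11.8 RPKM at T15, 24.3, 14.05 and 18.0 RPKM at T30, and 15.8, 16.7 and 13.0 RPKM at T60. Its changes of 1.63, 2.28 and 2.01 passed at each time (limma adjusted p = 0.0198, 0.00137 and 0.00458), that at T15 not without WT T0 replicate 2, WT T15 replicate 1 or WT T15 replicate 3. They were 0.64, 1.28 and 1.02 without WT T0 replicate 2. PAS_chr4_0937 also rose at each time, by 1.65, 2.21 and 1.37, of which T15 and T60 were lost without WT T0 replicate 2 (0.95 and 0.67, adjusted p = 0.181 and 0.257), and the change at T60 turned to -0.13 with quantile normalization. PAS_chr1-4_0361 had the largest rise of the factors called in WT, 4.38 at T60 (SE 1.29, adjusted p = 0.0153). It was 127 and 171 RPKM in the 2 higher-median WT T60 libraries and 38.7 RPKM in the third, against 0, 4.01 and 18.3 RPKM at T0. The call was lost without WT T0 replicate 1, WT T60 replicate 1 or WT T60 replicate 2 (highest adjusted p = 0.0899). The part of the library kind in this result was not tested.

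The remaining calls in WT were few. PHD1, an activator of pseudohyphal growth, fell at T60 by 1.59 on the log2 scale (limma adjusted p = 0.0201), with 6.57 and 5.92 RPKM in the higher-median libraries and 27.0 RPKM in the third, against 51.3, 20.6 and 34.1 RPKM at T0. The groups overlapped, and the call was lost without WT T60 replicate 1 or 2 (adjusted p = 0.115 each) or WT T0 replicate 1 or 3. BAS1, ACA1 and VHR2 passed at T60 and PAS_chr1-3_0098, a DNA-binding subunit of the SBF cell cycle complex, at T30, each lost in at least 4 of 6 fits with 1 library left out. The last was 1.12, against 0.36 without WT T0 replicate 2 and 1.69 without WT T0 replicate 1. None of the 7 tested genes of the general transcription machinery passed in WT by limma, and at an unadjusted p under 0.05 the number was 2, 1 and 3 at T15, T30 and T60. Of all 4226 tested genes, 1231, 1696 and 1933 had such an unadjusted p.

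**Figure D4:**
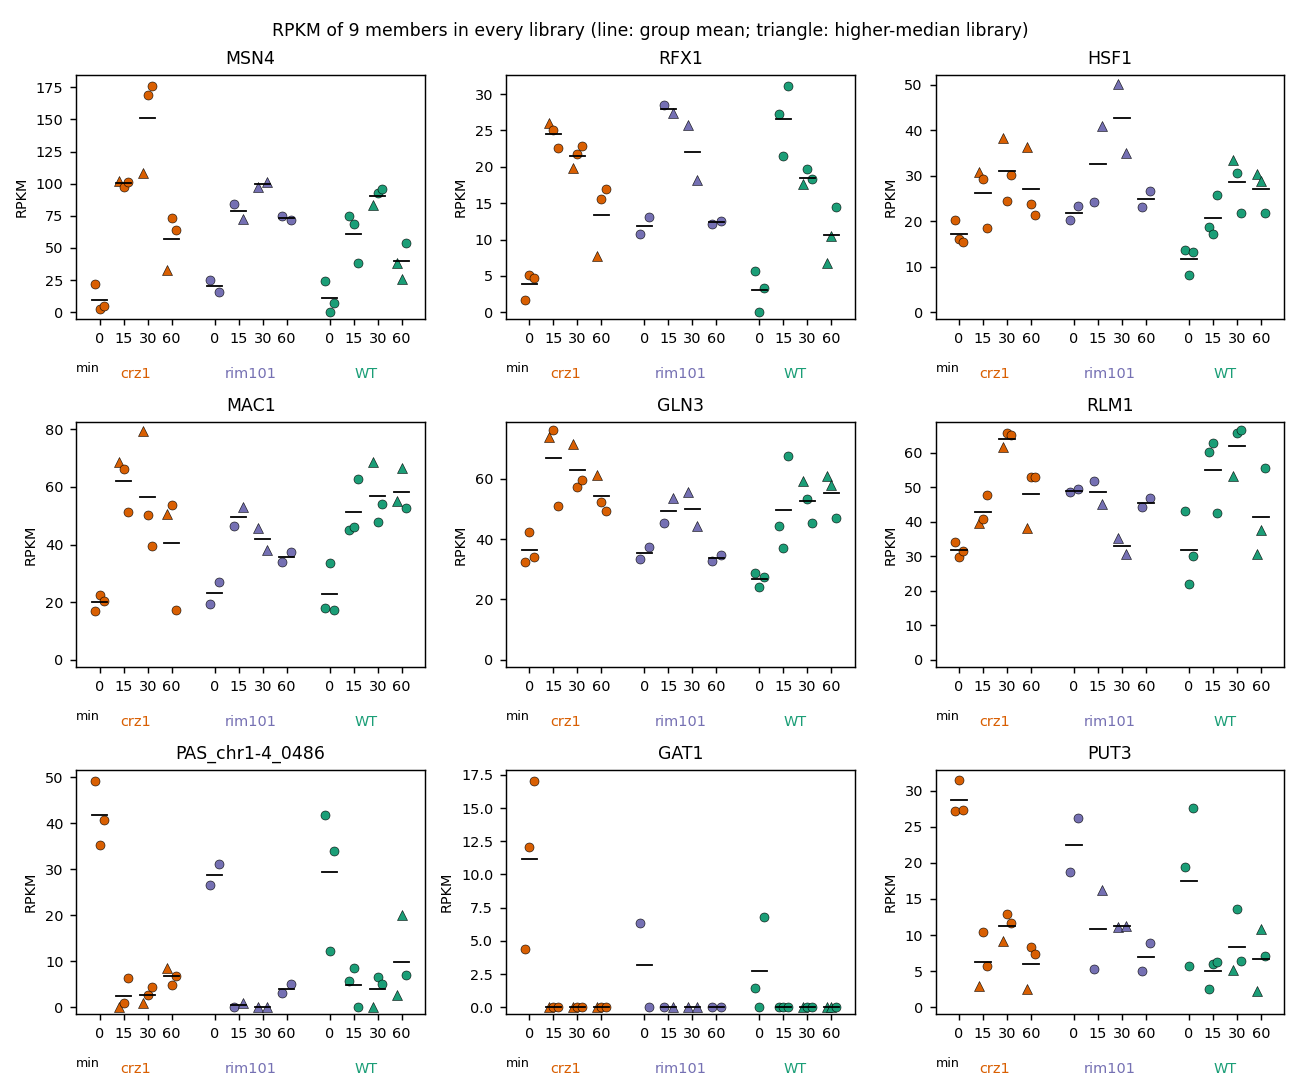
RPKM of 9 members in every library, by strain and by minutes after T0 (0 is pH 5.5, the later times pH 8.0); points are libraries, triangles the higher-median ones, and lines group means. MSN4, RFX1 and GLN3 lie above T0 at every later time in crz1 and WT, PAS_chr1-4_0486 lies below T0 in both mutants, and GAT1 is listed at 0 in all 24 libraries at pH 8.0.

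In crz1, as many factors fell as rose at T15, more rose than fell at T30, and 1 more fell than rose at T60. Of the 62 factors 6 rose and 6 fell at T15, or 19.4% changed, against 22.9% of all tested genes, of which 14.6% rose and 8.33% fell. At T30, 8 rose and 3 fell, 17.7% against 22.1% (16.8% rose and 5.28% fell). At T60, 4 rose and 5 fell, 14.5% against 17.7% (12.4% rose and 5.4% fell). With median-ratio scaling the counts were 5 and 8, 4 and 3, and 3 and 4, and with quantile normalization 5 and 8, 3 and 6, and 3 and 5. The median change of the factors was 0.13, 0.37 and 0.31, beside 0.24, 0.43 and 0.29 for all genes.

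MSN4 was the strongest riser in crz1, with 22.3, 2.55 and 4.83 RPKM at T0, 102, 97.3 and 102 RPKM at T15, 109, 168.9 and 176 RPKM at T30, and 33.0, 73.6 and 63.7 RPKM at T60. No library at pH 8.0 overlapped T0, and the log2 changes were 3.69, 4.25 and 2.80 (limma adjusted p = 0.00032, 8.01e-05 and 0.00587). RFX1 was 1.73, 5.16 and 4.75 RPKM at T0, 26.1, 25.1 and 22.5 RPKM at T15, 19.9, 21.8 and 22.8 RPKM at T30, and 7.78, 15.6 and 16.97 RPKM at T60, with changes of 2.48, 2.29 and 1.58 (adjusted p = 0.000374, 0.000879 and 0.0201). The last was lost without crz1 T0 replicate 1, crz1 T60 replicate 2 or crz1 T60 replicate 3 (highest adjusted p = 0.124). MAC1 and GLN3 rose at T15 and T30, MAC1 by 1.59 and 1.41 and GLN3 by 0.85 and 0.78 (lost at T30 without crz1 T30 replicate 1, adjusted p = 0.0512). Of the 12 factors called in crz1 at T15 and the 8 called in WT, 5 were the same and moved the same way (41.7% of the crz1 calls and 62.5% of the WT calls), and 8 were at T30 (72.7% of 11 and 61.5% of 13). At T60 it was 3 (33.3% of 9 and 16.7% of 18). Shared calls between strains were not counted over all tested genes, here or for rim101 below, so they are given as a description.

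Nitrogen and respiration factors made up most of the falls in crz1. PUT3 (PAS_chr2-1_0329), the activator of proline use, was 27.2, 31.5 and 27.4 RPKM at T0, 2.98, 10.4 and 5.66 RPKM at T15, 9.20, 12.9 and 11.7 RPKM at T30, and 2.49, 8.29 and 7.38 RPKM at T60. All libraries at pH 8.0 lay below all at T0, and the fall passed at T15 and T60 (log2 changes of -2.14 and -2.19, limma adjusted p = 0.00666 and 0.00836). Each was lost without the higher-median replicate 1 of that time (adjusted p = 0.0527 and 0.0613). In WT, PUT3 was 2.57, 5.99 and 6.34 RPKM at T15 against 19.4, 5.67 and 27.6 RPKM at T0, a change of -1.47 that did not pass (limma adjusted p = 0.0748). It was -2.09 and passed without WT T0 replicate 2 (adjusted p = 0.0095).

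The Hap4-domain gene PAS_chr1-4_0486 was 49.3, 35.4 and 40.8 RPKM at T0 in crz1, 0, 0.928 and 6.41 RPKM at T15, 1.01, 2.75 and 4.41 RPKM at T30, and 8.57, 4.83 and 6.75 RPKM at T60. It fell by 4.13, 3.63 and 2.49 on the log2 scale (limma adjusted p = 0.000749, 0.00266 and 0.0412), of which the last held in none of 6 leave-one-out fits (highest adjusted p = 0.121). A second gene described with the same domain, PAS_c121_0017 (chromosome 1, 2659738 to 2660245), was 66.1, 89.2 and 108 RPKM at T0, 31.4, 44.7 and 41.3 RPKM at T15, 38.976, 36.4 and 30.7 RPKM at T30, and 50.9, 39.5 and 36.5 RPKM at T60. It fell by 1.13, 1.27 and 1.02 (adjusted p = 0.016, 0.0081 and 0.037). Its call at T60 was lost without crz1 T0 replicate 2 or 3 or crz1 T60 replicate 2 or 3 (highest adjusted p = 0.164), and that at T15 without crz1 T0 replicate 3 or crz1 T15 replicate 1. HAA1, the activator of acetic acid resistance genes in S. cerevisiae, fell by 0.44 at T15 and 0.46 at T60, and both calls were lost in 4 of 6 fits with 1 library left out. HMS1-1, a helix-loop-helix factor of pseudohyphal growth, fell at T15 alone, to 4.86, 3.65 and 6.14 RPKM, against 17.8, 15.7 and 14.7 RPKM at T0 (log2 change -1.55, adjusted p = 0.0067). In WT at T15 it passed without WT T0 replicate 2 (-1.49, adjusted p = 0.00229) and not with it (-0.85, adjusted p = 0.171).

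In rim101, which had 2 libraries per time, fewer factors passed than in the other strains. At T15, 0 rose and 3 fell, 4.84% against 8.16% of all tested genes, of which 5.47% rose and 2.7% fell. At T60, 0 rose and 3 fell, 4.84% against 3.86% (2.72% rose and 1.14% fell). By limma at an unadjusted p under 0.05, 6 factors changed at T15 and 9 at T60. At T30, when both libraries were of the higher-median kind, 5 rose and 4 fell, 14.5% against 28.2% (23.5% rose and 4.64% fell). With median-ratio scaling that was 1 and 4, and with quantile normalization 0 and 8, so the rises at T30 depended on the scaling. The kind of library and the time cannot be told apart at rim101 T30.

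HAA1 and both Hap4-domain genes fell in rim101. HAA1 was 90.5 and 101 RPKM at T0, 59.5 and 56.4 RPKM at T15, 71.8 and 59.1 RPKM at T30, and 47.1 and 54.8 RPKM at T60. Its log2 changes were -0.71, -0.55 and -0.90 (limma adjusted p = 0.0127, 0.0319 and 0.00402). That at T60 was lost only without rim101 T60 replicate 1 (adjusted p = 0.101) among the 4 fits with 1 library left out, while that at T30 held in none of the 4 (highest adjusted p = 0.16) and that at T15 in 3 of the 4.

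PAS_c121_0017 was 60.3 and 131 RPKM at T0 in rim101, 29.9 and 40.9 RPKM at T15, 18.7 and 25.4 RPKM at T30, and 25.6 and 39.3 RPKM at T60. The changes were -1.32, -1.98 and -1.46 (limma adjusted p = 0.0481, 0.00189 and 0.0464), and the first and last were lost when any of 3 of the 4 libraries was dropped (adjusted p up to 0.394 and 0.522). Without rim101 T0 replicate 2 they were -0.77 and -0.91. PAS_chr1-4_0486 was 26.5 and 31.2 RPKM at T0, 0 and 0.892 RPKM at T15, listed at 0 in both libraries at T30, and 3.07 and 4.97 RPKM at T60. Its fall passed at T15 and T30 (adjusted p = 0.00693 and 0.00199), and that at T15 was lost without replicate 1 of rim101 T0 or T15 (adjusted p = 0.0521 and 0.0584). This gene was the only factor called in the same direction in all 3 strains at T15, and at T30 it was so with MSN4 and YHP1.

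MCM1 fell in rim101 at T30, with 89.0 and 138 RPKM against 323 and 310.4 RPKM at T0 (log2 change -1.51, SE 0.30, limma adjusted p = 0.00125). The call held whichever of the 4 libraries was dropped, and with both other scalings. Both rim101 T30 libraries are of the higher-median kind, so none of these fits removed that kind. At T60, where neither rim101 library is of that kind, MCM1 was 369.7 and 378 RPKM. Over all strains and times, the median of MCM1 was 152 RPKM in the higher-median libraries and 285 RPKM in the others, with overlapping ranges. The part of the library kind in this fall was not tested. MGA1, a factor with a heat shock type domain linked to pseudohyphal growth, fell at T60 to 7.77 and 14.2 RPKM, against 61.9 and 49.3 RPKM at T0 (-2.29, adjusted p = 0.0232), a call that held in none of 4 leave-one-out fits (highest adjusted p = 0.319). In WT it was 11.3, 12.1 and 41.9 RPKM at T60 against 58.3, 20.8 and 68.6 RPKM at T0 (-1.23, limma adjusted p = 0.0507), and without WT T0 replicate 2 it passed (-1.75, adjusted p = 0.00876).

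Among the rises of rim101 at T30, MSN4 was 97.8 and 101 RPKM against 25.0 and 15.5 RPKM at T0 (log2 change 2.28, limma adjusted p = 0.0469). Leaving out any of the 4 libraries ended this call (highest adjusted p = 0.181). At T15 MSN4 was 84.2 and 72.8 RPKM and at T60 74.6 and 71.7 RPKM, all above T0, though neither time passed. HCM1, YHP1, PAS_chr4_0937 and WAR1 also passed at T30, each lost in 2 or 3 of the 4 fits with 1 library left out. Without rim101 T0 replicate 2 the change was 1.35 for HCM1, 1.27 for PAS_chr4_0937 and 0.60 for YHP1, against 2.32, 1.99 and 0.93 with it, and YHP1 was also 0.60 without rim101 T30 replicate 1. RFX1 was 28.5 and 27.4 RPKM at T15 in rim101, against 10.7 and 13.1 RPKM at T0, a change of 1.17 that did not pass (adjusted p = 0.233).

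Over the 3 strains, 31 of the 62 factors were called in at least 1 of the 9 comparisons with T0, 22 of them only as rising, 9 only as falling and 0 both ways, and 31 were called in none. These are 50.0%, 35.5% and 14.5% of the factors, and of all tested genes 55.8% were called, 42.5% only as rising and 12.2% only as falling. Each strain's comparisons share their T0 libraries. The most calls of a single gene were 7, for MSN4, which rose, and for PAS_chr1-4_0486, which fell.

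No factor passed the test between a mutant and WT at the same time. By limma, 0 of the 62 passed in each of the 8 comparisons, against 0.071%, 0.568%, 0.426% and 0.26% of all tested genes for crz1 and 0.118%, 1.06%, 1.51% and 1.66% for rim101 at T0, T15, T30 and T60. For crz1 these genes were higher in 0.0237%, 0.0%, 0.0% and 0.0237% and lower in 0.0473%, 0.568%, 0.426% and 0.237%. For rim101 they were higher in 0.0473%, 0.663%, 0.639% and 0.828% and lower in 0.071%, 0.402%, 0.876% and 0.828%. At an unadjusted p under 0.05, the number of factors was 7, 1, 0 and 2 for crz1 and 7, 1, 3 and 10 for rim101. Of all 4226 tested genes it was 308, 137, 114 and 117 for crz1 and 167, 272, 374 and 542 for rim101. A p over the threshold does not show that the levels were alike. At T30 the difference of MSN4 from WT was 0.71 in crz1 (95% interval -0.71 to 2.12) and 0.14 in rim101 (-1.44 to 1.72), so sizeable differences either way remain possible. Closer bounds were found for GLN3, at 0.25 in crz1 (-0.18 to 0.69) and -0.07 in rim101 (-0.56 to 0.41).

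At T0 the median of the factors was above that of all genes in both mutants relative to WT. The median difference was 0.51 for crz1 and 0.47 for rim101, beside 0.18 and 0.15 for all tested genes. Without WT T0 replicate 2 the medians were 0.15 and 0.26, beside 0.20 and 0.16. RFX1 had the smallest unadjusted p, with 10.7 and 13.1 RPKM in rim101 T0, against 5.65, 0 and 3.40 RPKM in WT T0, a difference of 2.06 (95% interval 0.98 to 3.14, limma adjusted p = 0.244). The mutant libraries lay above all 3 of WT. The difference was 1.25 without WT T0 replicate 2, where RFX1 was listed at 0 (adjusted p = 0.341), and without WT T0 replicate 1 it was 2.62 and passed (adjusted p = 0.0245), the only call among 5 fits with 1 library left out.

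**Figure D5:**
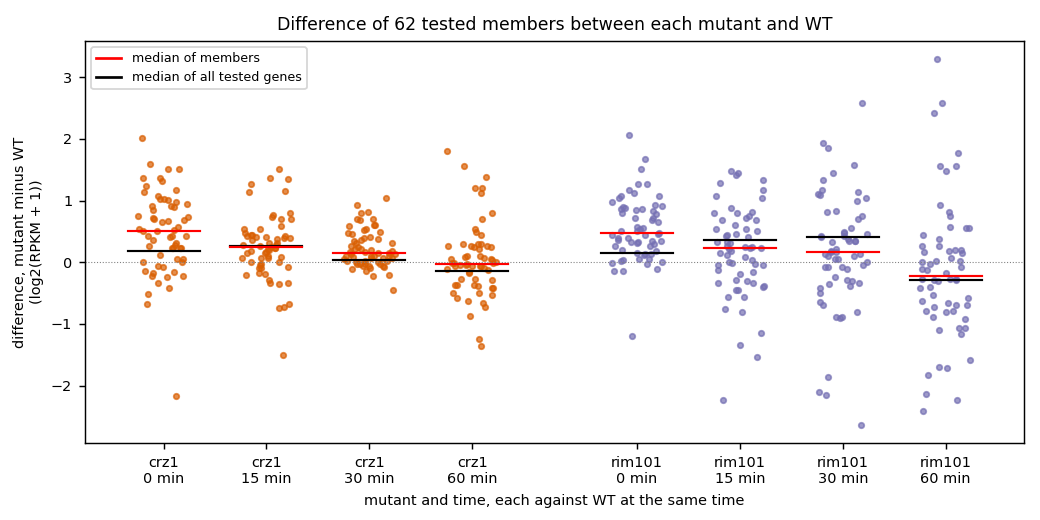
Difference of each of the 62 tested members between a mutant and WT at the same time, in log2(RPKM + 1), by mutant and minutes; points are genes, red lines their median and black lines the median of all 4226 tested genes. No point passed limma's adjusted p of 0.05; at 0 min the medians of the members are 0.51 (crz1) and 0.47 (rim101).

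The response since T0 differed from that of WT for a single factor, in rim101 at T30. RLM1 was 35.5 and 30.5 RPKM in rim101 T30 against 48.6 and 49.5 RPKM in rim101 T0, while it was 53.4, 65.9 and 66.7 RPKM in WT T30 against 43.2, 22.1 and 30.2 RPKM in WT T0. Both rim101 libraries were lower at T30 than at T0, and all 3 WT libraries were higher. The changes were -0.56 in rim101 and 0.98 in WT, a difference of -1.55 (95% interval -2.29 to -0.81, SE 0.36, limma adjusted p = 0.0356). Against T0, the change in rim101 did not pass by itself. In crz1, RLM1 was 61.7, 65.7 and 65.2 RPKM at T30 against 34.2, 29.8 and 31.5 RPKM at T0 and rose by 0.99. Dropping a single library ended the call in 8 of 10 cases (highest adjusted p = 0.237, without rim101 T30 replicate 2), and it was also lost with both other scalings and with a replicate block (adjusted p = 0.0724). Both rim101 T30 libraries are of the higher-median kind, and in WT T30 the library of that kind was the lowest of 3, and their part in the result was not tested.

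By the same test, 0 factors differed in response in the other 5 comparisons, where 0.0%, 0.0237% and 0.0% of all tested genes passed for crz1 at T15, T30 and T60, and 0.45% and 0.568% for rim101 at T15 and T60. At T30 in rim101 the background was 0.781%. At an unadjusted p under 0.05 there were 1, 1 and 3 factors for crz1, and 3, 5 and 8 for rim101. GLN3 at T60 in rim101 came next, with 32.7 and 34.7 RPKM at T60 against 33.5 and 37.3 RPKM at T0. Its response was 1.09 lower than in WT on the log2 scale (difference -1.09, 95% interval -1.77 to -0.40, adjusted p = 0.295).

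Factors act through coregulators and general factors, of which 5 lists were counted in WT. Of all tested genes, 13.4%, 24.1% and 26.9% rose at T15, T30 and T60, and 5.18%, 4.07% and 4.61% fell. Of 11 tested genes of Mediator, the bridge between factors and RNA polymerase II, 0, 1 and 0 rose and 0, 0 and 1 fell at T15, T30 and T60. Of 15 genes of SAGA, a histone acetyltransferase complex, 0, 1 and 3 rose, and of 12 genes of the chromatin remodellers SWI/SNF and RSC 0, 1 and 5. By limma at an unadjusted p under 0.05, 0 genes of each of these 3 lists changed at T15, against 4 of the general factors and 1 of the corepressors counted next. Of all 4226 tested genes, 1231 did. At T60 the risers were SPT20, GCN5 and TAF6 of SAGA, and SWI3, STH1, RSC2, RSC4 and NPL6 of the remodellers. Of 24 general factors of RNA polymerase II 1, 4 and 5 rose and 1 fell (at T15), among them the elongation factors SPT5 and SPT6 at T30 and T60. Of 11 corepressors and histone deacetylases 1, 1 and 4 rose, including TUP1, the corepressor that Rfx1 and Mig1 recruit in S. cerevisiae, at T60. The list medians at T60 were 0.71, 0.22, 0.98, 0.82 and 0.77, in the order of this paragraph, beside 0.65 for all genes.

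The authors' deposited table tests every group against WT T0. At its false discovery rate under 0.05, 1 factor rose and 1 fell in WT at T15, 2 rose at T30 and 2 at T60, with 8.03%, 7.18% and 4.74% of its 4581 genes passing. In the authors' deposited table the rises in WT were of WAR1, VHR2 and BYE1, and the fall was of PUT3. MSN4 had a false discovery rate of 0.106, 0.0625 and 0.701 in WT at T15, T30 and T60 in the authors' deposited table, with log2 changes of 2.39, 2.58 and 1.35. For rim101 at T30, where 31.6% of its 4581 genes passed, the authors' deposited table gave 10 rises and 17 falls against WT T0. The 5 rises and 4 falls given above were against rim101 T0. Shares of all its genes that rose or fell were not counted. The authors' calls include the rise of YAP3 and the fall of USV1. Both genes separate the higher-median libraries from the others without overlap, and both rim101 T30 libraries are of that kind.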

How the data were processed

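Poly(A) RNA was sequenced as non-directional libraries, per the labels' protocols, so reads of opposite strands cannot be told apart. The submitters' processing notes list edgeR and Bowtie2. Versions and genome build are not given in the sources used here. The authors deposited RPKM values of 5040 genes in 32 libraries, and a table with the log2 fold change, p-value and false discovery rate of each group against WT T0 for 4581 genes. All 5040 identifiers and coordinates equal those of RefSeq's ASM2700v1 table (strain GS115).

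RPKM values are not counts and were not tested as such. Depths were read from the spacing of low values, of which 92.5% to 100% lay within 0.1 of a whole read. RPKM was used as deposited. log2(RPKM + 1) was fitted with limma-trend (limma 3.58.1, R 4.3.3) for all 12 groups at once, with 20 residual degrees of freedom and two-sided tests, on the 4226 genes with a mean of at least 1 RPKM. P-values were adjusted by Benjamini-Hochberg over those genes in each of 23 comparisons: 9 of a time with T0, 8 of a mutant with WT, and 6 of responses. The log2(RPKM + 1) scale understates changes of low genes. The fit was tested on simulated data for WT T30 against WT T0. Of 100 genes given a log2 change of 1, 40% were called, and of 100 given a change of 2, 65%. Among unchanged genes 0.124% were called. Many true changes would thus be missed. The simulated spread was independent between libraries and did not hold the 2 kinds of library. Figures came from matplotlib 3.10.9 and summaries from pandas 2.3.3 with Python 3.11.15.

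The genes, lists and roles were chosen with earlier results of these data known, and roles were assigned by hand from the descriptions. The rule for naming took, in WT at each time, up to 6 rises and 6 falls by size with a mean of at least 5 RPKM, any gene called in a mutant comparison, the 5 highest and 3 lowest means, and GCN4, MSN4, HSF1, SKN7, ZAP1, CAT8-1, MIG1-1 and the Hap genes. Others were named after their values were seen. Alternatives were 2 other scalings (median-ratio, quantile), a pseudocount of 0.1, no filter, a replicate block, no higher-median libraries, and each library left out.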

Additional observations from a re-analysis of the deposited data

Results flagged for a closer look

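RLM1, a MADS-box factor of the cell wall integrity pathway in S. cerevisiae, changed with opposite signs in rim101 and WT at T30. Against T0 the fall in rim101 did not pass by itself, and the rise in WT was lost with either other scaling. The change since T0 was -0.56 in rim101 and 0.98 in WT, and the difference of -1.55 passed a direct test of the difference (limma adjusted p = 0.0356). It was lower in both rim101 libraries and higher in all 3 WT libraries. The same difference was -1.78 with median-ratio scaling (adjusted p = 0.457) and -1.95 with quantile normalization (adjusted p = 0.485). With a replicate block the adjusted p was 0.0724. Over the 10 fits with 1 library left out it stayed between -1.79 and -1.32, and 8 of the 10 lost the call.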

How the results depend on the processing

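Counts of factors called against T0 moved by more than 1.5 times under these settings. With quantile normalization they were 4 in WT at T30, 7 in WT at T60 and 0 in rim101 at T60. With median-ratio scaling they were 7 in crz1 at T30, and 5 and 1 in rim101 at T30 and T60. Without the higher-median libraries they were 1 in rim101 at T15 and 1 in WT at T60, and rim101 at T30 could not be fitted. Without a filter on low values, 1 factor passed in rim101 against WT at T30, and 2 in the difference in response of rim101 at T30, which was 0 with either scaling. Replicate numbers were not taken as pairing the samples, since not every pair of a strain and number correlated above 0.1. Of 48 such pairs 33 did (median 0.24, from -0.53 to 0.88), against 25 of 84 pairs of the same strain with other numbers (median -0.15). A replicate block gave 14 in WT at T15, 20 in WT at T30, 14 in crz1 at T60, 17 in rim101 at T30, and 0 for the difference in response of rim101 at T30. With 1 library left out, counts ran from 8 to 15, 9 to 11 and 5 to 8 in crz1 at T15, T30 and T60, 1 to 3, 3 to 7 and 0 to 2 in rim101, and 3 to 9, 9 to 14 and 8 to 28 in WT. For WT at T60 it was 8, 10 and 28 when replicates 1, 2 and 3 of T60 were each dropped, and for WT at T15 it was 3 when replicate 3 of T15 was. In crz1 at T60 it was 5 without crz1 T0 replicate 3, crz1 T60 replicate 1 or crz1 T60 replicate 2. In rim101 it was 1 at T15 without rim101 T15 replicate 2, 3 and 4 at T30 without rim101 T30 replicates 1 and 2, and 0 and 1 at T60 without rim101 T60 replicates 1 and 2. For rim101 against WT it was 0 to 1 at T0, T30 and T60, and 0 to 1 for the difference in response at T30. The cause of these moves was not tested. Of the 22 gene results chosen by the naming rule none reversed (FKH2 and PAS_chr4_0937 at T60, outside that rule, did with quantile normalization, at -0.18 and -0.13); 14 lost their call with quantile normalization, 5 with median-ratio scaling, 2 with a pseudocount of 0.1, 1 with the block and 9 of 21 without the higher-median libraries, and 10 kept it in every fit with 1 library left out. The 2 rim101 libraries per time give little information on their own spread.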

Other observations

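A few factors outside the calls are given by library. ADR1, the carbon-responsive zinc finger factor, was listed at 0 in all 8 T0 libraries and reached 19.4 RPKM in crz1 T60 replicate 1 and 15.2 RPKM in WT T60 replicate 1, both of the higher-median kind. The other two WT T60 libraries were listed at 0. PCC1, a short gene of 270 bases, was 14.7 to 45.6 RPKM in the 9 higher-median libraries and listed at 0 in 10 of the other 23, yet it had its highest value, 63.7 RPKM, in WT T0 replicate 2.

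MBP1, the DNA-binding subunit of a factor of entry into S phase, was listed at 0 in all 9 higher-median libraries and had a median of 1.59 RPKM in the other 23. SUT2, linked to sterol uptake, was listed at 0 in the same 9 and had a median of 7.83 RPKM in the others.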
